A study of Mus musculus with 10 samples.

Results

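Grn, Psap, Sort1 and Tmem106b encode progranulin, prosaposin, the sorting receptor sortilin and the lysosomal membrane protein TMEM106B, and were picked by symbol from a table of gene expression in mouse medial prefrontal cortex. They are 4 of the 78317 genes listed, and all 4 were among the 15680 genes tested, those with a mean of at least 1 TPM, a measure of transcript abundance scaled by transcript length and library. The study asked what overexpression of the microRNA miR-130a-3p does to the transcriptome of this frontal region. The miR-130a group held 5 libraries, numbered 13, 14, 15, 17 and 18, from mice given an adeno-associated virus (AAV) that overexpresses miR-130a-3p. The control group held 5 libraries, numbered 3, 4, 5, 7 and 9, from mice given a control AAV. Every mouse was labelled wild type, and the tissue, a 1 mm punch, was labelled as mixed cell types. Strain, sex, age, the promoter of the virus and the time after injection are not given in the sources used here, nor is it stated that each library came from its own mouse. The p-values therefore describe scatter among these 10 libraries, which may in part be technical.

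Progranulin is a secreted glycoprotein built of granulin repeats, made in the brain mainly by microglia and neurons. Sortilin binds it at the cell surface and carries it to the lysosome, where proteases cut it into granulins. Prosaposin travels with progranulin on receptors of its own, and is cut in the lysosome into saposins, small proteins that present sphingolipids to the enzymes that degrade them. Loss of a copy of GRN causes frontotemporal dementia in people, loss of both copies causes a neuronal ceroid lipofuscinosis, and common variants of TMEM106B modify the risk of the dementia.

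The sequence of the overexpressed microRNA is shown first, because a seed match to it was found in 1 of the transcripts that fell. miR-130a-3p (RefSeq, GRCm38.p6, chr2:84741116-84741137, minus strand) shares its seed, bases 2 to 8 and in capitals here, with other microRNAs, of which miR-130b-3p (chr16:17124071-17124092, minus strand) and miR-301a-3p (chr11:87113054-87113076, plus strand) are shown for comparison.
miR-130a-3p: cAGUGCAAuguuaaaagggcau
miR-130b-3p: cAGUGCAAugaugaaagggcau
miR-301a-3p: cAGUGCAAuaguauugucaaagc
The microRNA itself was not measured here, since its gene and the other microRNA genes, 2206 in all, were listed at 0 in all 10 libraries.

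For each gene, its longest 3′ untranslated region (UTR) in the annotation was searched on the sense strand for TTGCACT, which pairs with bases 2 to 8, and for TGCACTA, which pairs with bases 2 to 7 and ends in A. Both overlap in the 8 letters TTGCACTA. Psap held this longest match once, starting at base 825 of an 868-base UTR. The site is given with its flanks in lower case and the match in capitals.
Psap site: attttgttTTGCACTAaagtttct
Such a match occurred in 2.49% of 13307 tested genes with an annotated UTR. Tmem106b held TTGCACT once, at base 3285 of a 4943-base UTR, and TTGCACT was found in 12.3% of the genes.
Tmem106b site: cttataatTTGCACTtaggaaat
Sort1 held no match beyond the 6 letters TGCACT, found once in 4268 bases and present in 36.9% of the genes. Grn, with a UTR of 337 bases, held none of these matches. The median UTR was 1392 bases long, so the UTRs of Grn and Psap were short and those of Sort1 and Tmem106b long. Of the 332 tested genes with TTGCACTA, Psap among them, 16.6% were called lower and 0.904% higher, with a median log2 fold change of −0.19. Of the 8396 genes without TGCACT, 12.5% were called lower and 2.82% higher, with a median of −0.10. The classes between lay close together. With TTGCACT or TGCACTA but not TTGCACTA, 13.4% of 1897 genes were called lower (median −0.14). With TGCACT only, 13.5% of 2682 genes were called lower (median −0.13). Of all 13307 genes with a UTR, 12.9% were called lower and 2.16% higher. The genes with TTGCACTA also had longer UTRs, with a median of 2856 bases against 936 bases in the genes without a match, and the part of UTR length was not tested.

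Grn (ENSMUSG00000034708) fell in the miR-130a group. It was at 62.2, 45.3, 65.0, 69.3 and 52.5 TPM in miR-130a libraries 13, 14, 15, 17 and 18, against 133, 140, 147, 197 and 164 TPM in control libraries 3, 4, 5, 7 and 9. The highest miR-130a library lay far below the lowest control, and within the controls libraries 7 and 9 were highest. The means were 58.9 ± 9.76 TPM in miR-130a and 156 ± 25.8 TPM in control libraries (SD, n = 5 each), so that the miR-130a mean was 37.7% of the control mean. The log2 fold change of TPM + 1 was −1.39 (SE 0.14; 95% interval −1.70 to −1.09; limma adjusted p = 0.000503 over all genes tested). Of the tested genes, 2.22% had a lower fold change, and Grn was number 13 when genes were ordered by p.

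Psap (ENSMUSG00000004207) fell as well. It was at 1100, 1046, 901, 971 and 1124 TPM in miR-130a libraries 13, 14, 15, 17 and 18, against 1605, 1694, 1826, 1729 and 1640 TPM in control libraries 3, 4, 5, 7 and 9. The groups did not overlap, and control libraries 7 and 9 lay inside the range of the other controls, unlike for Grn. The means were 1029 ± 92.1 TPM in miR-130a and 1699 ± 85.6 TPM in control libraries (SD, n = 5 each), which put the miR-130a mean at 60.5% of the control mean. The log2 fold change was −0.73 (SE 0.09; 95% interval −0.93 to −0.53; limma adjusted p = 0.00107). Scatter within the groups was low for this gene, with a coefficient of variation of 8.95% in miR-130a and 5.04% in control libraries.

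Sort1 (ENSMUSG00000068747), the receptor that takes up progranulin, did not pass the threshold. It was at 108, 130, 103, 91.7 and 127 TPM in miR-130a libraries 13, 14, 15, 17 and 18, against 145, 164, 186, 133 and 105 TPM in control libraries 3, 4, 5, 7 and 9. Control library 9 lay inside the miR-130a range, while the other 4 controls lay above every miR-130a library. The means were 112 ± 16.4 TPM in miR-130a and 147 ± 30.7 TPM in control libraries (SD, n = 5 each). The log2 fold change was −0.37 (SE 0.15; 95% interval −0.70 to −0.04; limma adjusted p = 0.133), and 19.3% of tested genes had a lower one. Without control library 9 it was −0.48 with a limma adjusted p of 0.0223, and without control libraries 7 and 9 it was −0.56 with a limma adjusted p of 0.0207, both past the threshold.

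Tmem106b (ENSMUSG00000029571), whose product governs lysosome size and transport in neurons, showed no detectable difference. It was at 30.2, 36.7, 43.7, 20.1 and 35.1 TPM in miR-130a libraries 13, 14, 15, 17 and 18, against 31.3, 29.2, 30.2, 27.4 and 31.5 TPM in control libraries 3, 4, 5, 7 and 9. The miR-130a values spread on both sides of the controls, with library 15 highest and library 17 lowest. The means were 33.2 ± 8.75 TPM in miR-130a and 29.9 ± 1.70 TPM in control libraries (SD, n = 5 each), a coefficient of variation of 26.4% in miR-130a and 5.67% in control libraries. The log2 fold change was 0.10 (SE 0.17; 95% interval −0.26 to 0.47; limma adjusted p = 0.742), an interval that spans changes in both directions, and without miR-130a library 15 it was −0.01.

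**Figure D1:**
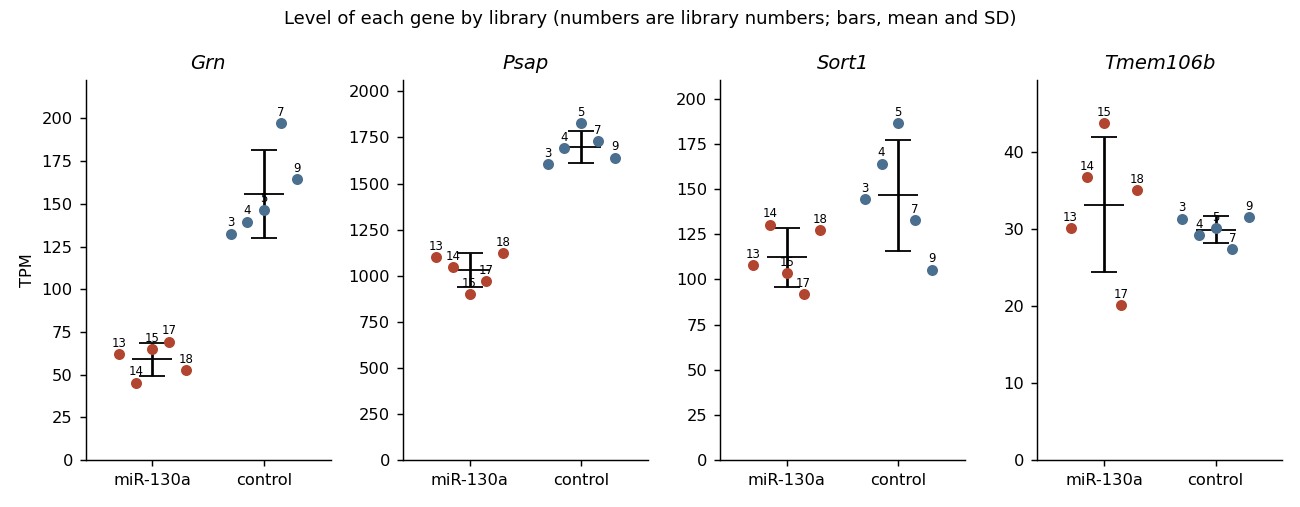
Level in TPM (y axis, from 0) of Grn, Psap, Sort1 and Tmem106b in each of the 5 miR-130a and 5 control libraries, with library numbers beside the points and mean ± SD as bars. Grn and Psap show a gap between the groups, Sort1 overlaps through control library 9, and Tmem106b scatters from 20.1 to 43.7 TPM in miR-130a libraries around the narrow control range.

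So 2 of the 4 genes were called, both lower, where 11.3% of all tested genes were called lower and 2.19% higher by the same rule. Both also had groups without overlap and lower in miR-130a libraries, which held for 9.46% of tested genes. Over all tested genes the median was −0.09 (log2), and scalings that moved it to between −0.04 and 0.05 changed the balance of calls. Of all calls 16.3% were higher as deposited and 42.0% after median-ratio scaling (1198 lower, 866 higher). After quantile normalization 50.6% were higher (1046 lower, 1071 higher). The shares of 11.3% lower and 2.19% higher therefore hold for the values as deposited. Relative to the median of all genes, the log2 fold changes were −1.30 for Grn, −0.63 for Psap, −0.28 for Sort1 and 0.20 for Tmem106b.

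**Figure D2:**
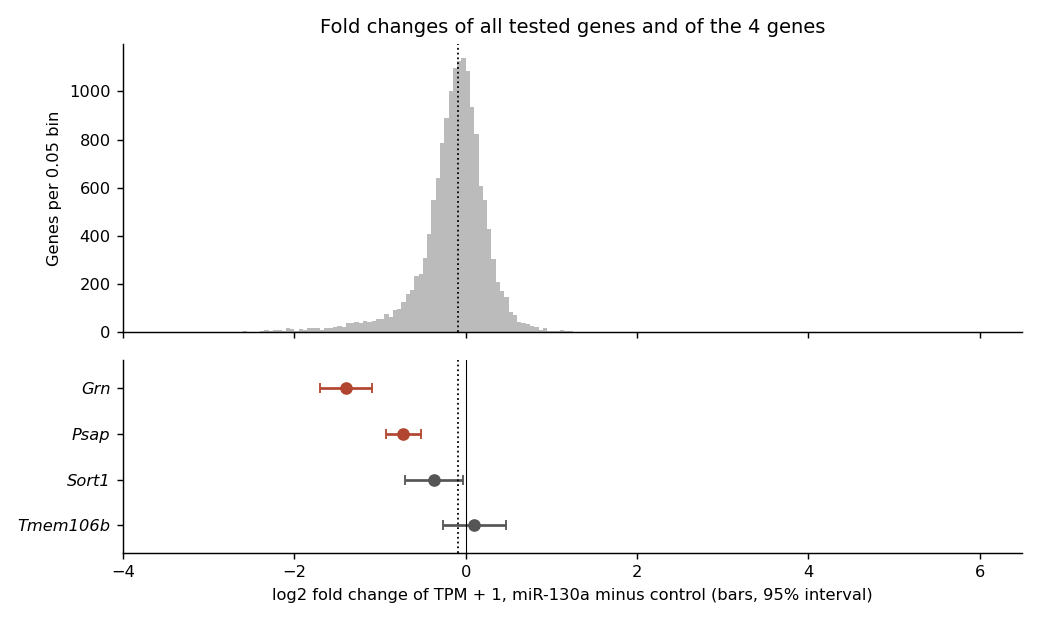
Upper panel, the number of genes (y axis) per bin of log2 fold change of TPM + 1, miR-130a minus control (x axis), for all 15680 tested genes; lower panel, the fold changes of the 4 genes with 95% intervals, in red where they passed the threshold, with the median of all genes, −0.09, as a dotted line. Grn at −1.39 lies in the lower tail, Psap at −0.73 nearer to the bulk, and the intervals of Sort1 and Tmem106b reach into the middle of the distribution.

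The order of the levels, which TPM allows between genes because it is set per transcript length, differed between the groups in the middle places. Psap was the most abundant and Tmem106b the least abundant of the 4 in every library. Grn lay below Sort1 in 5 of 5 miR-130a libraries, and above it in 2 of 5 control libraries, numbers 7 and 9, so that in the controls these neighbours did not differ beyond their spread. By mean TPM among all tested genes, Psap held place 92 in miR-130a and place 44 in control libraries, and Grn place 2395 in miR-130a and place 953 in control libraries. Sort1 held place 1259 in miR-130a and 1022 in control libraries, and Tmem106b place 3990 in miR-130a and 4647 in control libraries.

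Ratios of 2 genes within a library are free of the library's scaling, and 6 were compared with a 2-sided exact permutation test whose smallest possible p is 0.00794, with Benjamini-Hochberg adjustment over the 6. The Grn to Psap ratio was 0.0565, 0.0433, 0.0721, 0.0713 and 0.0467 in miR-130a libraries 13, 14, 15, 17 and 18, against 0.0826, 0.0824, 0.0803, 0.114 and 0.1002 in control libraries 3, 4, 5, 7 and 9. Grn was thus lower relative to Psap in all 5 miR-130a libraries than in any control, with a log2 difference of −0.68 (exact permutation p = 0.00794, adjusted 0.0119). The Grn to Sort1 ratio ran from 0.348 to 0.755 in miR-130a and from 0.787 to 1.56 in control libraries, a log2 difference of −1.03 (exact permutation p = 0.00794, adjusted 0.0119). Its group ranges nearly touch, and without control libraries 7 and 9 the log2 difference was −0.70 with an exact permutation p of 0.0536. The Grn to Tmem106b ratio ran from 1.23 to 3.44 in miR-130a and from 4.23 to 7.20 in control libraries, a log2 difference of −1.51 (exact permutation p = 0.00794, adjusted 0.0119).

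Psap was lower relative to Tmem106b too, with ratios of 20.6 to 48.2 in miR-130a and 51.2 to 63.1 in control libraries (log2 difference −0.83; exact permutation p = 0.00794, adjusted 0.0119). The Psap to Sort1 ratio overlapped between the groups, at 8.02 to 10.6 in miR-130a and 9.80 to 15.6 in control libraries (log2 difference −0.35; exact permutation p = 0.0397, adjusted 0.0476). Leaving out 1 library ended that result in 7 of 10 cases, with an exact permutation p of up to 0.0952, and without control libraries 7 and 9 the difference was −0.17 (exact permutation p = 0.161). The Sort1 to Tmem106b ratio, 2.37 to 4.55 in miR-130a and 3.34 to 6.18 in control libraries, did not pass (log2 difference −0.48; exact permutation p = 0.0794, adjusted 0.0794). It passed without control library 9 (log2 difference −0.61, exact permutation p = 0.0159) and without miR-130a library 17 (log2 difference −0.58, exact permutation p = 0.0397).

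**Figure D3:**
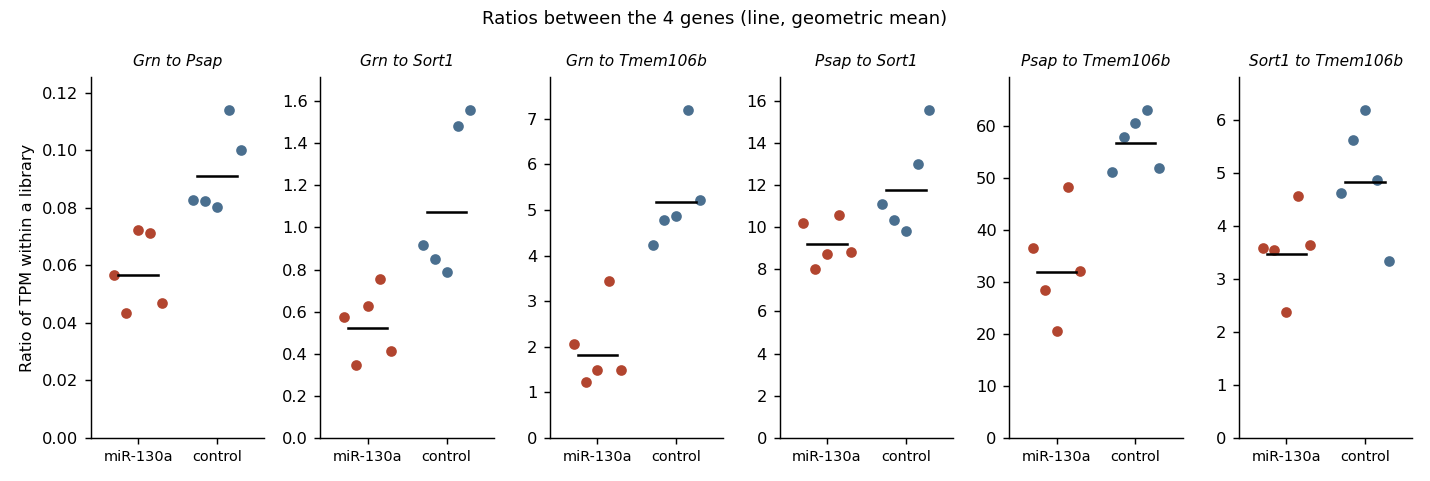
Ratio of the TPM values of 2 genes within each library (y axis, from 0) for the 6 pairs, with 5 miR-130a and 5 control libraries per panel and the geometric mean as a line. The 3 ratios with Grn on top and the Psap to Tmem106b ratio separate the groups, and the 2 ratios with Sort1 against Psap or Tmem106b overlap.

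Grn and Psap are expressed in microglia, and markers of these resident brain macrophages moved with them. In tissue, fewer cells of a type and less RNA per cell cannot be told apart. Of 11 microglial markers tested, 9 were called lower in the miR-130a group, against 11.3% of all tested genes. The summed level of the 11 ran from 393 to 578 TPM in miR-130a and from 1007 to 1964 TPM in control libraries. Csf1r, the growth factor receptor that microglia depend on, had a log2 fold change of −1.39, while the purinergic receptor P2ry12 was at −0.20 and did not pass (limma adjusted p = 0.485), and 0 of the 11 were at 0. Per TPM of this sum, Grn overlapped between the groups, at 0.102 to 0.153 in miR-130a and 0.0836 to 0.139 in control libraries. Psap per TPM of the sum overlapped at the edges, at 1.68 to 2.71 in miR-130a and 0.835 to 1.72 in control libraries. The complement gene C1qa alone was at 182 ± 48.1 TPM in miR-130a and 812 ± 334 TPM in control libraries (SD, n = 5 each). Without it, a choice made after its level was seen, Grn was at 0.161 to 0.240 in miR-130a and 0.212 to 0.299 in control libraries and its group medians changed order, while Psap was at 2.91 to 4.16 in miR-130a and 2.12 to 3.23 in control libraries. The part of these markers in the results was not tested.

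**Figure D4:**
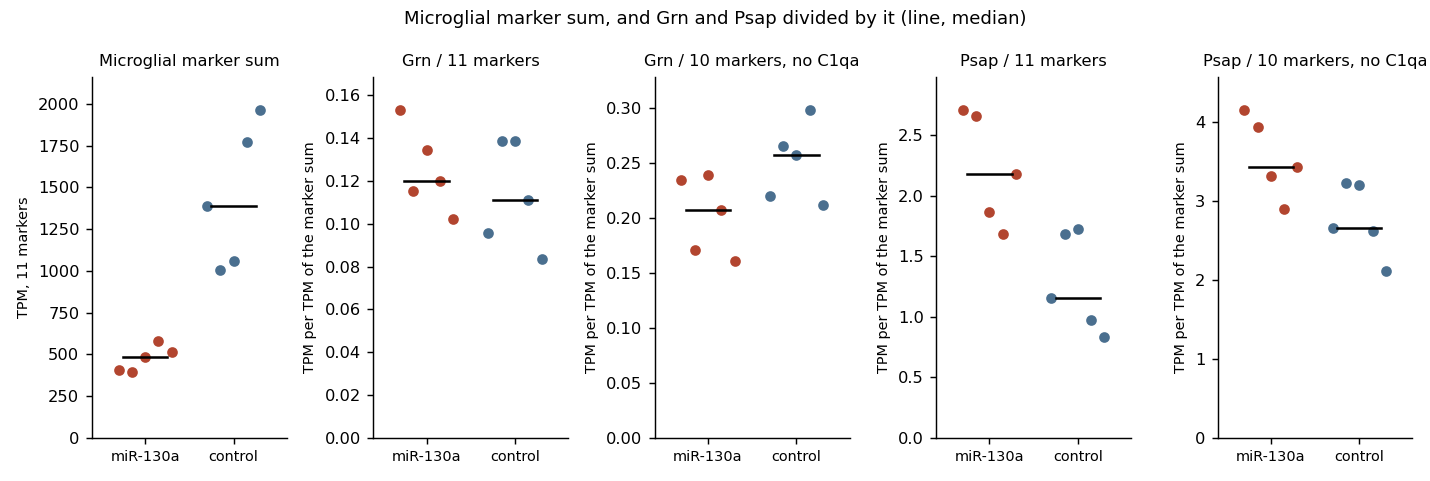
First panel, the summed TPM of 11 microglial markers in each of the 5 miR-130a and 5 control libraries; other panels, TPM of Grn and of Psap per TPM of that sum, with all 11 markers and with 10 (C1qa left out), all y axes from 0 and lines at the median. The sum lies at 393 to 578 TPM in miR-130a and 1007 to 1964 TPM in control libraries. Grn and Psap divided by it each overlap between the groups in both versions.

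The cortical label and other cell types were checked with marker lists. Summed excitatory neuron markers ran from 3478 to 4645 TPM in miR-130a and from 3192 to 6092 TPM in control libraries with 0 of 7 called in limma. Choroid plexus markers summed to at most 2.30 TPM in miR-130a and 2.36 TPM in control libraries, and striatal markers, 1 of 5 lower, to at most 38.7 TPM in miR-130a and 35.5 TPM in control libraries. Of 8 astrocyte, 8 oligodendrocyte and 5 precursor markers, and of 5 blood markers, 0 were called in limma. Members of vascular and blood-derived lists were called lower with Grn and Psap, where 11.3% of all tested genes were called lower. They were 5 of 7 endothelial, 3 of 5 mural, 2 of 5 tested lymphocyte and 1 of 3 tested border macrophage and monocyte markers. The last 2 of these lists hold too few calls to be set apart from that share. Endothelial markers summed to 117 to 156 TPM in miR-130a and 171 to 195 TPM in control libraries, and mural markers to 111 to 151 TPM in miR-130a and 167 to 210 TPM in control libraries. Lymphocyte markers summed to 1.30 to 8.43 TPM in miR-130a and 10.3 to 79.9 TPM in control libraries, and border macrophage and monocyte markers to 5.45 to 16.6 TPM in miR-130a and 21.3 to 123 TPM in control libraries. In control libraries the border macrophage and monocyte sum rested mostly on the monocyte gene Ly6c2, the 1 called member. Ly6c2 was at 5.16 ± 3.71 TPM in miR-130a and 52.2 ± 45.8 TPM in control libraries (SD, n = 5 each). Mrc1 did not pass (log2 fold change −0.61), nor did Pf4, whose value was positive (0.43). All 4 sums were lower in miR-130a libraries without overlap, which held for 9.46% of single tested genes. The part of these sums in the results for Grn and Psap was not tested. Of 7 inhibitory neuron markers 2 were called higher, where 2.19% of all tested genes were. The 7 summed to 1264 to 1651 TPM in miR-130a and 898 to 1147 TPM in control libraries. That gap came mostly from the neuropeptide gene Sst, at 1065 ± 182 TPM in miR-130a and 645 ± 30.4 TPM in control libraries (SD, n = 5 each), and Vip was the other called gene. Mitochondrially encoded genes took 16.0% to 19.9% of TPM in miR-130a and 13.04% to 16.4% in control libraries, and with the values rescaled without these genes the log2 fold changes were −1.33 for Grn and −0.67 for Psap. Without control libraries 7 and 9 they were −1.25 for Grn and −0.73 for Psap, and both passed in limma.

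For each of the 4 genes, the 3 genes of most similar profile were sought among 8288 genes with a mean of at least 10 TPM, by the root-mean-square difference of log2 values over the 10 libraries after each gene's mean was taken off. The profile of Grn lay closest to that of Ctsd, cathepsin D, a lysosomal protease that cuts both progranulin and prosaposin, at a difference of 0.16. It was followed by Tcn2, which carries vitamin B12, at 0.16 and by Tnfrsf1a, a receptor of tumor necrosis factor, at 0.17, against a root-mean-square deviation of 0.73 for Grn itself. Ctsd was at 399 ± 67.2 TPM in miR-130a and 1103 ± 148 TPM in control libraries, and Tcn2 at 15.3 ± 2.18 TPM in miR-130a and 38.5 ± 5.60 TPM in control libraries (SD, n = 5 each). Psap lay closest to Hs3st1, a heparan sulfate sulfotransferase, at 0.09, to Rela, a subunit of NF-kB, at 0.10 and to Rnf31, a ubiquitin ligase subunit that acts upstream of NF-kB, at 0.10, against 0.38 for Psap itself. All 6 of these genes were called lower, which the choice by likeness to a called gene over the same libraries largely fixes, so their calls add nothing to those of Grn and Psap.

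Sort1 lay closest to Add1, a membrane skeleton protein, at 0.07, to Tom1l2, an endosomal adaptor, at 0.08 and to Vps33a, a tethering protein of late endosomes and lysosomes, at 0.08, against 0.30 for Sort1 itself. Their log2 fold changes were −0.40, −0.41 and −0.38, and none of the 3 passed in limma, while all 3 passed without control library 9, a likeness to Sort1 that again comes from how they were chosen. Tmem106b lay closest to Eif1ax, a translation initiation factor, at 0.05, to Trnt1, which adds the end of transfer RNAs, at 0.07 and to Zbtb11, a zinc finger protein, at 0.08, against 0.27 for Tmem106b itself. Eif1ax shared its wide scatter in the miR-130a group, at 40.9 ± 10.2 TPM in miR-130a and 36.8 ± 1.85 TPM in control libraries (SD, n = 5 each). That likeness too is largely fixed by the choice of the nearest profile over the same libraries.

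Around the 4 genes, 90 genes of their pathway were set out in 9 lists, and of the 3 of lowest p in each those reported here are named, with any further called member named after its values were seen. Of 86 tested, 26 were called lower in miR-130a libraries and 1 higher, where 11.3% of all tested genes were called lower and 2.19% higher. The lists with 0 of 4, 0 of 10, 1 of 12 and 2 of 9 members called lower hold too few calls to be set apart from that background. No list was tested as a set, the others included. The lists were also chosen with earlier results of these data known, so counts above the background may in part reflect that choice. Each gene stands in 1 list only, so a list need not hold every gene of its name. Among proteases and modulators that process progranulin and prosaposin, 5 of 9 tested were lower and 0 higher (median log2 fold change −1.01, against −0.09 for all genes). Besides Ctsd they were cathepsin B (Ctsb), at 424 ± 29.9 TPM in miR-130a and 896 ± 109 TPM in control libraries, and the asparagine-specific protease Lgmn, at 121 ± 13.96 TPM in miR-130a and 245 ± 30.8 TPM in control libraries (SD, n = 5 each). Cathepsin S (Ctss) and the membrane metalloprotease Mmp14 were the others, and the call of Mmp14 was lost when 1 of 7 particular libraries was left out (limma adjusted p at most 0.105) and after median-ratio scaling (0.123).

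Enzymes and activators that degrade sphingolipids with saposins, or with the related Gm2a, were lower in 6 of 11 cases and higher in 0 (median −0.43). Among all tested genes, 11.3% were called lower. Hexa, which encodes a subunit of a ganglioside-degrading enzyme, fell to 52.4 ± 6.02 TPM in miR-130a, against 108 ± 26.2 TPM in control libraries (SD, n = 5 each). Gm2a, Glb1 and Arsa were called lower as well, and Glb1 and Arsa lost their calls after median-ratio scaling (limma adjusted p = 0.0640 and 0.0518). Arsa also lost its call when 1 of 4 particular libraries was left out (limma adjusted p at most 0.0672). The deposited annotation places Psap and Sort1 in KEGG's lysosome pathway, where 49 of 120 tested genes were lower and 0 higher (40.8% lower, against 11.3% of all tested genes; median log2 fold change −0.35). Psap was the gene of second highest level in that pathway and made up 9.08% ± 0.989 of its summed TPM in miR-130a and 11.1% ± 0.396 in control libraries (SD, n = 5 each), without overlap between the groups.

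Of the 4 relatives of Sort1 in the VPS10 receptor family, Sorl1, Sorcs1, Sorcs2 and Sorcs3, 0 passed in limma, and 0 had an unadjusted p under 0.05 (median −0.07). Without control libraries 7 and 9, where Sort1 passed, 1 of the 4, Sorl1, was lower. With all 10 libraries Sorl1 was at 64.9 ± 3.20 TPM in miR-130a and 69.4 ± 19.0 TPM in control libraries (limma adjusted p = 0.898). Sorcs2 was at 14.9 ± 1.99 TPM in miR-130a and 17.1 ± 3.06 TPM in control libraries, Sorcs1 at 9.29 ± 1.24 TPM in miR-130a and 8.57 ± 1.602 TPM in control libraries, and Sorcs3 at 16.9 ± 1.65 TPM in miR-130a and 18.5 ± 3.92 TPM in control libraries (SD, n = 5 each; limma adjusted p from 0.440 to 0.706). Of 19 genes of export and endosomal sorting, 5 were lower and 0 higher (median −0.17), where 11.3% of all tested genes were called lower. M6pr, a mannose 6-phosphate receptor that brings enzymes and prosaposin to lysosomes, fell to 53.5 ± 6.43 TPM in miR-130a, against 80.5 ± 4.95 TPM in control libraries (log2 fold change −0.59; limma adjusted p = 0.00339). Cln6, which helps export lysosomal enzymes from the endoplasmic reticulum, was at 8.51 ± 1.31 TPM in miR-130a and 13.3 ± 2.26 TPM in control libraries (limma adjusted p = 0.0160, and 0.0950 after quantile normalization). Lrp1, an endocytic receptor that takes up prosaposin, was at 126 ± 19.6 TPM in miR-130a and 179 ± 21.3 TPM in control libraries (limma adjusted p = 0.0221). The calls of Lrp1 and Furin were lost after median-ratio scaling (limma adjusted p = 0.0536 and 0.0922), and that of the adaptor Gga1 when 1 of 5 particular libraries was left out (at most 0.0631). Lrp1 also lost its call when 1 of 5 particular libraries was left out (limma adjusted p at most 0.0622), and Furin when 1 of 7 was (at most 0.102). The list had 2 calls when tested without a filter on low values, and also without miR-130a library 14, control library 4 or control library 7. It had 3 after median-ratio, trimmed-mean or quantile scaling, and without miR-130a library 13, miR-130a library 15 or control library 3. Its calls are therefore not firmly set apart from the share over all tested genes.

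Genes reported as receptors of progranulin or prosaposin were lower in 4 of 5 tested cases (median −1.25), where 11.3% of all tested genes were called lower. Tnfrsf1a fell to 11.1 ± 1.75 TPM in miR-130a, against 28.0 ± 6.32 TPM in control libraries, and Tnfrsf1b to 2.68 ± 0.446 TPM in miR-130a, against 10.4 ± 3.93 TPM in control libraries (SD, n = 5 each). Tlr9, an endosomal DNA sensor for which granulin is a cofactor, fell to 1.12 ± 0.334 TPM in miR-130a, against 4.37 ± 1.37 TPM in control libraries. Gpr37l1, an astrocytic receptor reported to respond to prosaposin, lost its call when 1 of 8 particular libraries was left out (limma adjusted p at most 0.120) and after median-ratio scaling (0.204). Of 7 relatives and partners of TMEM106B, 3 were lower and 1 higher, where 11.3% of all tested genes were called lower and 2.19% higher. The paralog Tmem106a, known from macrophages, fell to 1.39 ± 0.840 TPM in miR-130a, against 10.9 ± 5.49 TPM in control libraries (log2 fold change −2.26; limma adjusted p = 0.00185), where Tmem106b itself was at 0.10. The lysosomal membrane glycoproteins Lamp1 and Lamp2 had log2 fold changes of −0.65 and −0.61, and Chmp2b, a sorting complex subunit in which mutations cause frontotemporal dementia, rose by 0.38, a call lost without miR-130a library 13 (limma adjusted p = 0.0643) or without control library 3 (0.0592).

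**Figure D5:**
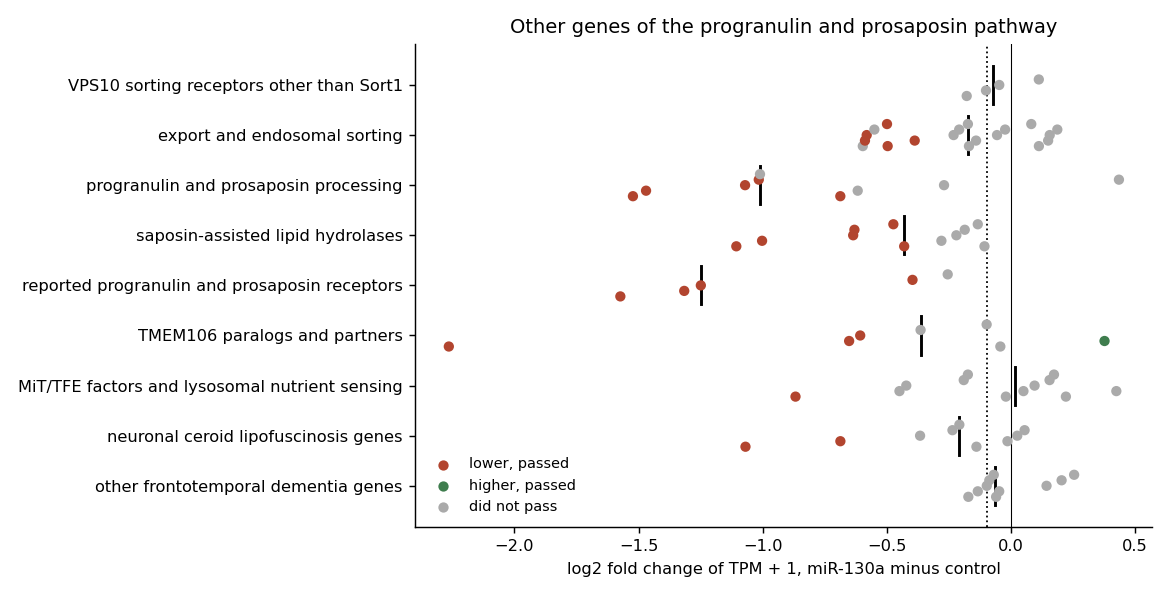
Log2 fold change of TPM + 1, miR-130a minus control (x axis), of the tested genes in the 9 pathway lists (rows), coloured by call, with the list median as a bar and the median of all genes, −0.09, as a dotted line. Processing enzymes, saposin-assisted hydrolases and reported receptors lie to the left, with medians of −1.01, −0.43 and −1.25, and VPS10 receptors, nutrient sensing genes and dementia genes lie around the dotted line.

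Of 12 tested MiT/TFE transcription factors, which switch on lysosomal genes, and nutrient sensing subunits, 1 was lower and 0 higher (median 0.02). It was Tfeb, at 5.25 ± 1.20 TPM in miR-130a and 10.3 ± 1.33 TPM in control libraries (SD, n = 5 each; log2 fold change −0.87; limma adjusted p = 0.00360). Tfe3 was at −0.42 and the scaffold subunit Lamtor2 at 0.42, both without passing (limma adjusted p = 0.0528 and 0.0553; each passed under some alternatives), and without control library 9 the list had 3 lower genes and 1 higher. The E-box letters CACGTG, the core of the element these factors bind, were found on either strand in 0 of 1 Grn, 0 of 2 Psap and 0 of 1 Tmem106b promoter windows (RefSeq, GRCm38.p6, 250 bases before to 50 after a start) and in 7.15% of all such windows, which says only that these letters are not in those windows. Sort1 had no such window and was not searched. Of 9 other ceroid lipofuscinosis genes in this list, 2 were lower and 0 higher: the lysosomal peptidase Tpp1, at 28.1 ± 2.40 TPM in miR-130a and 46.1 ± 7.49 TPM in control libraries, and the membrane protein Cln3, at 8.07 ± 1.88 TPM in miR-130a and 18.2 ± 4.51 TPM in control libraries (SD, n = 5 each). Ctsd and Cln6, called lower, and Cln8, which did not pass (limma adjusted p = 0.0798), are also genes of this disease group. They were counted in other lists, so the count covers this list and not the disease group. Atp13a2 was at −0.37 and did not pass (limma adjusted p = 0.0903), but passed without miR-130a library 17 (0.0472), without control library 9 (0.0102) and with library weights (0.00547). Of 10 other genes of frontotemporal dementia 0 passed in limma, with 1 at an unadjusted p under 0.05, and without control libraries 7 and 9 the counts were 1 lower and 1 higher. Chmp2b, called higher, was counted with the partners of TMEM106B and is not among these 10. The autophagy receptor Sqstm1 had a log2 fold change of −0.17 and the segregase Vcp of −0.13 (limma adjusted p = 0.328 and 0.428).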

How the data were processed

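Per the labels' protocols, RNA of integrity number 6.5 or more from tissue punches was made into stranded poly(A) libraries. The tools named in the submitters' processing notes are RSEM, HISAT2, fastp and DESeq2, and the build is GRCm39; their versions and roles are not given in the sources used here. The authors deposited TPM per gene and library, which keep no depth, so no counting interval could be given; 2 columns of group means were not used. Columns were matched to libraries by title. Values were tested as log2(TPM + 1), which understates changes of low genes, for genes averaging at least 1 TPM, with limma 3.58.1 (eBayes with trend, 2-sided, 5 against 5 libraries) in R 4.3.3, with Benjamini-Hochberg adjustment over all genes tested and a threshold of 0.05. The fit was tested on simulated data. No covariate was used; the labels give no batch, and library numbers run in separate blocks by group, so such a batch and the group cannot be told apart. Of 45 pairs of libraries, 0 held identical values. Ratios of 2 genes were compared with exact permutation tests over all splits into 5 and 5. Genes were named by rule: the 4 genes, for each the 3 of nearest profile (predicted models and pseudogenes left out), and the 3 of lowest p per pathway list. Some of these genes are not reported here. The 4 genes and the lists were chosen with earlier results of these data known. UTRs came from GENCODE M21 transcripts (GRCm38) matched by gene identifier; since the build differs, no gene coordinates are given. Figures and searches used Python 3.11.15, numpy 2.4.6, pandas 2.3.3 and matplotlib 3.10.9. Alternatives were other pseudocounts, filters, scalings and variance models, library weights, and leaving libraries out.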

Additional observations from a re-analysis of the deposited data

Results flagged for a closer look

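In 112 groups of 5 libraries checked (each named gene and each ratio in either group), 6 held a library set apart from the others by Dixon's test, which by chance picks out about 1 in 20 groups. Of these, 0 belonged to Grn, Psap, Sort1 or Tmem106b or to their ratios. Hexa was at 152.8 TPM in control library 9, with the next control at 103.0 TPM. Lamp2 was at 63.4 TPM in miR-130a library 15, with the next at 52.7 TPM. Sorcs2 was at 18.3 TPM in miR-130a library 17 and Sorcs1 at 11.4 TPM in miR-130a library 15, with the next at 14.6 and 9.16 TPM. Control library 9 was lowest and set apart for Lrp1 at 141.7 TPM, with the next control at 179.8 TPM, and for Gga1 at 29.1 TPM, with the next at 41.4 TPM. So 3 of the 6 lay in control library 9, the control in which Sort1 was lowest too, and their source was not tested.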

How the results depend on the processing

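Grn and Psap were lower and passed limma in all 23 alternatives run, with log2 fold changes from −1.46 to −1.25 and from −0.76 to −0.61. Sort1 was negative in all 23, weakest at −0.25 with median-ratio scaling, from −0.48 to −0.28 on leaving out 1 library, and −0.56 without control libraries 7 and 9; it passed in that last setting and without control library 9. Tmem106b passed in 0 of 23 and ran from −0.0057 to 0.26 on leaving out 1 library. The total of 2110 called genes was 1302 without a filter on low values, 3840 with library weights, and 1228 (without control library 7) to 3413 (without control library 9) on leaving out 1 library; it was 1313 without miR-130a library 13 and 1278 without miR-130a library 14. Of ratios, Grn to Sort1 was −0.70 without control libraries 7 and 9. Psap to Sort1 ran from −0.42 to −0.25 on leaving out 1 library and was −0.17 without control libraries 7 and 9. Sort1 to Tmem106b ran from −0.61 to −0.34 on leaving out 1 library and was −0.65 without control libraries 7 and 9, where it passed. Among 1057 values of 46 other named genes, 67 lost and 31 gained a call and 5 changed sign: Sorcs3 at 0.012 with median-ratio scaling, 0.011 with trimmed-mean scaling and 0.066 with quantile normalization, Zbtb11 at −0.052 without miR-130a library 15 (0.19 at most on leaving out 1 library), and Sorcs1 at −0.061 without control libraries 7 and 9. The cause was not tested. The ratio of group medians of Grn per microglial TPM was 1.08 with 11 markers and 0.804 without C1qa, and that of Psap was 1.89 and 1.29, an alternative chosen after seeing the data. No paired analysis was possible because the groups share no library number. Depth is unknown, so what it limits could not be measured.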
